A study of Homo sapiens with 6 samples.

Results

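The nuclear genes of the mitochondrial respiratory chain and of ATP synthase were examined for chromatin accessibility in naive human embryonic stem cells given α-ketoglutarate. The genes were chosen by symbol: protein-coding genes of GENCODE release 44 that begin with NDUFA, NDUFB, NDUFC, NDUFS, NDUFV, UQCR, COX4 to COX8 or ATP5 and lie on an autosome. This gave 91 of 20046 protein-coding genes, and 3 X-linked genes with the same prefixes, NDUFA1, NDUFB11 and COX7B, were left out. The set held 7 core subunits, 29 other subunits and 8 assembly factors (the NDUFAF genes) of complex I, 9 genes of complex III, 18 of complex IV and 20 of complex V. COX7A2L, NDUFA4 and NDUFA4L2 were counted with complex IV, and the ATP synthase inhibitor ATP5IF1 and the read-through gene ATP5MF-PTCD1 with complex V. The measured features were the 261 peaks of the 171517 in the table whose centre lay within 1 kb of a transcript start of one of these genes. Of the 91 genes, 88 had such a peak, while ATP5MGL, COX4I2 and COX8C had none. For each gene, the peak with the highest mean normalized count was taken as its promoter peak. The 88 genes had 86 promoter peaks, because read-through genes share them.

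The respiratory chain passes electrons from NADH and succinate to oxygen through complexes I to IV of the inner mitochondrial membrane, and complex V makes ATP from the proton gradient that results. Mitochondrial DNA encodes only a few of the subunits, so most are made from nuclear genes and imported. α-Ketoglutarate is a metabolite of the tricarboxylic acid cycle, which supplies the chain with NADH, and it is a co-substrate of dioxygenases that remove methyl groups from histones and DNA. Promoters of nuclear respiratory genes are known for sites of NRF1, of the ETS family factor GABPA (also called NRF2) and of YY1. Several complex IV subunits exist as a widely used form and a tissue-restricted form, such as COX6A1 and the muscle form COX6A2.

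ATAC-seq was performed on H9 cells, an established human embryonic stem cell line, kept in the naive state in tt2iLGö medium at low oxygen. Cells were separated from their irradiated mouse feeder cells by plating on gelatin and were seeded on laminin. They then received 4 mM dimethyl α-ketoglutarate (dm-αKG, a cell-permeable ester) or 0 mM (control) for 24 h, with 3 libraries per treatment. GEO calls the control DMSO, and all libraries derive from 1 cell line. The study describes the libraries of a treatment as biological replicates of a single experiment. The labels do not say whether they were separate cultures, so the p-values measure the spread between these libraries.

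The libraries held between 13025674 and 26828622 counts in peaks, and their TMM scaling factors lay between 0.991 and 1.01. Promoter peaks were present at all 4 pluripotency markers and at 5 of 6 naive markers, with DPPA3 lacking one. They were also present at 5 of 5 markers of primed cells, 3 of 4 of trophoblast (VGLL1 had none) and 4 of 5 of fibroblasts (PDGFRB had none), so an open promoter did not tell these cell types apart. None of the trophoblast or fibroblast marker promoters was called changed at an adjusted p below 0.01. The fibroblast marker TWIST2 was just over that threshold (log2 fold change −0.58, adjusted p = 0.0112, edgeR), with its dm-αKG libraries below its controls. The naive markers KLF17 (−0.39) and SUSD2 (0.33) were called, in opposite directions, and the primed marker DUSP6 was called less accessible (−0.30). In these bulk libraries, a change in the share of cells that are open at a site and a change in accessibility within each cell cannot be told apart.

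The sequences on which the results turn are given here 5′ to 3′ on the strand of the gene, from hg38, leaving out any bases that GENCODE 44 annotates as untranslated. Capitals mark matches, on either strand, to the letters of NRF1 (GCGCATGC), ETS (CCGGAAG), YY1 (AAGATGGC), the CRE (TGACGTCA) or the SP/KLF box (GGGGCGG). The first 2 are called losses inside a complex III and a complex I gene, the first of them the deepest, and neither holds any of these matches:
UQCRH, chr1:46309851-46310050, plus strand: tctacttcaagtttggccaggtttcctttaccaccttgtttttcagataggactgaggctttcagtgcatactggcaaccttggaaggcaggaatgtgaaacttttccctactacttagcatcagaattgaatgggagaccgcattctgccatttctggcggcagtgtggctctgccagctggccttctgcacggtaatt
NDUFA7, chr19:8317072-8317278, minus strand: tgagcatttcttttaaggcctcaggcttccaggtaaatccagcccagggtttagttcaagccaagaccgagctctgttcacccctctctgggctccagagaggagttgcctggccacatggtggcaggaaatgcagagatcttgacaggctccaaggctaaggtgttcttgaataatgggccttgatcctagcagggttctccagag
The next 3 are gains in complexes IV and V that held in every alternative fit. The ATP5PB stretch is the whole peak, and the ATP5MJ and COX5A stretches are the parts of the peak without untranslated bases:
ATP5MJ, chr14:103921209-103921377, minus strand: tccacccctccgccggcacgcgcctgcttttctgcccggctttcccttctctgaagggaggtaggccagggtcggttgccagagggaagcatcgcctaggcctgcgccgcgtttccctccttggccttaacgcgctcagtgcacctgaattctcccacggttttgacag
COX5A, chr15:74937777-74937936, minus strand: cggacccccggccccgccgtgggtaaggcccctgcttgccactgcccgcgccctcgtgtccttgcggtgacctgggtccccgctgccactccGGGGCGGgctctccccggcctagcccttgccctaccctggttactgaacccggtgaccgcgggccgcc
ATP5PB, chr1:111448875-111449079, plus strand: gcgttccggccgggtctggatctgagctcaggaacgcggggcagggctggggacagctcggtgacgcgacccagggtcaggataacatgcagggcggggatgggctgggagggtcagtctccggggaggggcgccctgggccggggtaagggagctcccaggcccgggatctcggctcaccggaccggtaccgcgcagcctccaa
The last 4 show how promoter peaks of the set carry the motifs described further on. Only the COX6B1 promoter peak among them was called changed:
COX6A1, chr12:120437895-120438098, plus strand: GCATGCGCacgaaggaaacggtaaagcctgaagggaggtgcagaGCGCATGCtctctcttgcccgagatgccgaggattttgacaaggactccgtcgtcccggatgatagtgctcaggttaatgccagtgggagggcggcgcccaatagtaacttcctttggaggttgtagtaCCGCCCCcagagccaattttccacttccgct
COX5B, chr2:97645845-97646052, plus strand: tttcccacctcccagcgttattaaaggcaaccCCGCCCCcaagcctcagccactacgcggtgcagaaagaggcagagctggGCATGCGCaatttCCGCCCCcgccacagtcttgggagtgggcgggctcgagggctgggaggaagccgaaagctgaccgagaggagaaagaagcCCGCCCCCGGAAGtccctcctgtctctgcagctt
NDUFB5, chr3:179604650-179604786, plus strand: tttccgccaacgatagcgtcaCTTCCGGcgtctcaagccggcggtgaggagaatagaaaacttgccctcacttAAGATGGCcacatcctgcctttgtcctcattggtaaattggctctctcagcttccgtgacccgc
COX6B1, chr19:35648141-35648322, plus strand: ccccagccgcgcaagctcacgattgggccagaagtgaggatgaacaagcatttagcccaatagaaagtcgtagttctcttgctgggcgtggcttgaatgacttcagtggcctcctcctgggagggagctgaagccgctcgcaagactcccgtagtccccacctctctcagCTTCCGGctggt

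Small gains in accessibility near respiratory chain genes outnumbered losses after dm-αKG. At an adjusted p below 0.01 in edgeR's quasi-likelihood test, 21 of the 261 peaks were more accessible and 4 were less accessible, in 21 genes. The gains were 8.05% of the peaks, against 4.47% of the 50906 peaks within 1 kb of any protein-coding transcript start (called promoter-proximal peaks here) and 3.34% of all peaks. The losses were 1.53%, against 2.08% of promoter-proximal peaks and 6.54% of all peaks. Only 3 of the 25 called peaks changed more than 2-fold: ATP5MJ rose, while UQCRH and UQCRHL fell. Over the whole table, 0.782% of peaks rose and 1.96% fell beyond 2-fold. In 71 of the 261 peaks, or 27.2%, all 3 dm-αKG libraries lay above all 3 controls, compared with 21.6% of promoter-proximal peaks. The reverse order was seen in 14 peaks, or 5.36%, compared with 8.05%. Respiratory chain peaks had a median log2 fold change of 0.15, promoter-proximal peaks one of 0.10 and all peaks one of 0.011, so promoters in general shared a part of the positive shift.

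The excess of gains shrank with 1 of the scalings tried. RLE, total-count, upper-quartile and loess scaling gave 21, 26, 26 and 23 gains with 4 losses each. With TMM factors computed on promoter-proximal peaks alone, 8 peaks near respiratory chain genes were more accessible and 5 less accessible, so that gains made up 61.5% of the calls in place of 84%. The median log2 fold change of the 261 peaks was then 0.059 and that of promoter-proximal peaks 0.0085, and 1.99% of promoter-proximal peaks were called more accessible and 3.59% less accessible. The default DESeq2 test called 8 peaks more and 3 less accessible, and of promoter-proximal peaks it called 1.82% more and 1.16% less accessible. Without dm-αKG replicate 1, the most deeply sequenced library, 7 were more and 2 less accessible, and of promoter-proximal peaks 1.96% and 1.23%. In both fits, calls were thus fewer among promoter-proximal peaks of all genes as well. Of the 25 calls, 6 held in all 15 other fits: the loss at UQCRH and the gains at ATP5MJ, ATP5PB, COX5A, NDUFA11 and NDUFAF6.

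Each class but the complex I core had a larger share of more accessible peaks than the 4.47% of promoter-proximal peaks of all genes. Complex V had 5 more accessible peaks of 47 (10.6%) and no less accessible one, with a median log2 fold change of 0.18. Complex IV had 5 of 42 (11.9%) more accessible and none less, with a median of 0.16. In complex III, 2 of 25 peaks were more and 2 less accessible (8% each), and the median was 0.23. Among complex I genes, 1 of 29 peaks of core subunits was more accessible (3.45%, median 0.15). Of the other subunits 6 of 90 peaks were more (6.67%) and 1 less accessible (median 0.12), and of the assembly factors 2 of 28 were more (7.14%) and none less (median 0.13). The differences between complexes were not tested.

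**Figure D1:**
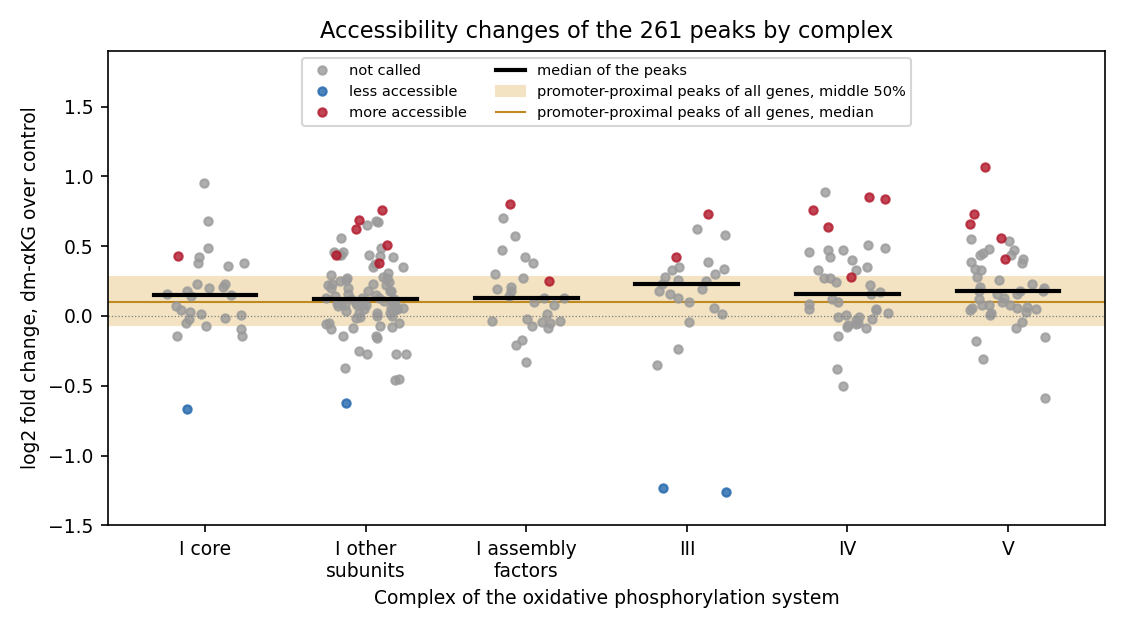
log2 fold change (dm-αKG over control, vertical axis) of each of the 261 peaks, grouped by complex (horizontal axis); red and blue points are called at adjusted p below 0.01, black bars are class medians, and the band and line give the middle 50% and the median of promoter-proximal peaks of all genes. The class medians lie between 0.12 and 0.23, and the 2 lowest points are the complex III peaks at UQCRH and UQCRHL.

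Of the 4 losses, none lay within 1 kb of a canonical transcript start, and those described here are near UQCRH, UQCRHL and NDUFA7. UQCRH encodes the hinge subunit of complex III, which contacts cytochrome c1. Its falling peak, 6252 bp downstream of the canonical start and beside the start of a retained-intron transcript, had 88.5, 83 and 72.9 normalized counts in the control libraries and 43.7, 35.9 and 16.5 in the dm-αKG libraries. All dm-αKG libraries were below all controls, and the log2 fold change was −1.26 ± 0.23 (SE, n = 3 per group; adjusted p = 1.47e-05, edgeR). The promoter peak of UQCRH did not pass the test (221 ± 17.8 in control and 251 ± 18.7 in dm-αKG, SD, n = 3).

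UQCRHL is an intronless copy of UQCRH elsewhere on chromosome 1. Its single peak, chr1:15809087-15809286 in an exon and 1538 bp upstream of the canonical start, had 42.9, 60.0 and 63.2 normalized counts in control and 18.6, 25.7 and 28.4 after dm-αKG. The groups were again apart, with a log2 fold change of −1.23 ± 0.27 (SE, n = 3; adjusted p = 4.28e-04, edgeR). Without dm-αKG replicate 1 the change at UQCRHL was −1.02 and no longer passed the test. The UQCRH and UQCRHL peaks are different sequences, with a longest identical run of 9 bases, so they share no long stretch that reads could match.

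NDUFA7 encodes a complex I subunit outside the catalytic core. Its falling peak, in an intron 4200 bp downstream of the canonical start, had 219, 178 and 187 normalized counts in control and 130, 121 and 129 in dm-αKG. Every dm-αKG library was below every control library, with a log2 fold change of −0.62 ± 0.13 (SE, n = 3; adjusted p = 2.76e-04, edgeR). The promoter peak of NDUFA7 did not pass the test, at a log2 fold change of 0.23. Leaving out control replicate 1 ended the NDUFA7 call, with a change of −0.52. The falling peaks had a median GC content of 48.8% in the 200 bp around their centre, against 65% in the rising ones.

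The largest gain was at ATP5MJ, which encodes a small membrane subunit of ATP synthase. The peak lay in an intron 256 bp downstream of the canonical start and had 39.4, 36.2 and 36.4 normalized counts in control and 78.9, 80.8 and 76.3 in dm-αKG. The libraries of each group were close together and the groups far apart, with a log2 fold change of 1.07 ± 0.22 (SE, n = 3; adjusted p = 1.11e-04, edgeR). The promoter peak of ATP5MJ next to it held 285 ± 23.1 normalized counts in control and 302 ± 18.7 in dm-αKG (SD, n = 3) and did not pass the test.

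ATP5PB, whose product is subunit b of the peripheral stalk, showed the same contrast between neighbouring peaks. Its rising peak, 487 bp upstream of the canonical start and in an intron of the annotation, had 136, 147 and 146 normalized counts in control and 229, 227 and 223 in dm-αKG. The groups did not overlap (log2 fold change 0.66 ± 0.12, SE, n = 3; adjusted p = 2.23e-05, edgeR), while the ATP5PB promoter peak was at 239 ± 18.4 and 242 ± 41.3 (SD, n = 3). The other complex V gains were at ATP5MG (subunit g of the membrane part; 0.73), ATP5PD (subunit d of the peripheral stalk; 0.56) and ATP5F1D (subunit delta of the central stalk; 0.41). All 3 were in introns or exons downstream of the canonical start, with the groups apart. Each was lost in at least 5 of the 15 other fits.

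In complex IV, COX5A had 2 rising peaks. COX5A encodes a subunit on the matrix side of the enzyme. The stronger peak, in an intron 246 bp downstream of the canonical start, had 68.0, 99.5 and 83.8 normalized counts in control and 146, 165 and 141 in dm-αKG, with every dm-αKG library above every control. Its log2 fold change was 0.84 ± 0.16 (SE, n = 3; adjusted p = 3.09e-05, edgeR). The next peak, 466 bp downstream, went from 51.0, 55.9 and 63.2 to 115, 93.6 and 68.9, a log2 fold change of 0.76 ± 0.19. The COX5A promoter peak held 491 ± 63.7 and 523 ± 16.3 normalized counts (SD, n = 3) and did not pass the test.

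COX6C, COX8A and COX6B1 had 1 rising peak each. COX6C and COX8A encode small membrane-spanning subunits. COX6C had a peak 520 bp downstream of its start with 27.7, 63.3 and 35.2 normalized counts in control and 78.9, 97.5 and 52.4 in dm-αKG. It was called (0.85 ± 0.23; adjusted p = 0.00452), but it was the only called peak of the 25 whose groups overlapped. COX8A had a peak 304 bp downstream with 112, 109 and 94.7 in control and 181, 187 and 118 in dm-αKG, a log2 fold change of 0.64 ± 0.15 (SE, n = 3; adjusted p = 8.64e-04, edgeR). The third dm-αKG library of COX8A lay just above the controls. COX6B1, which faces the intermembrane space, rose at its promoter peak from 439, 443 and 373 to 541, 508 and 476, a log2 fold change of 0.28.

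In complex III, UQCR11, a small membrane subunit, rose at its promoter peak from 260, 235 and 277 to 351, 346 and 323 normalized counts (0.42 ± 0.10; adjusted p = 9.81e-04). UQCRH, which had a falling peak inside the gene, also had a rising one 977 bp upstream of its start, with 39.4, 50.1 and 47.4 in control and 90.4, 64.1 and 67.4 in dm-αKG (0.73 ± 0.21; adjusted p = 0.00916; SE, n = 3, edgeR). The rising UQCRH peak is also near the start of LRRC41 and kept its call in 7 of the 15 other fits. The falling UQCRH peak kept its call in all 15.

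Among complex I genes, the core subunit NDUFS3 of the peripheral arm rose at its promoter peak, from 208, 233 and 248 normalized counts to 306, 331 and 284. All dm-αKG libraries of NDUFS3 exceeded the controls (0.43 ± 0.10, SE, n = 3; adjusted p = 0.00146, edgeR). NDUFA11, a membrane-arm subunit, had a peak 301 bp upstream of the canonical start with 282, 348 and 287 in control and 436, 434 and 371 in dm-αKG (0.44 ± 0.09; adjusted p = 1.83e-04). This NDUFA11 peak is also near starts of VMAC and of other genes outside the set. NDUFB1 rose at its promoter peak (0.51) and at a second peak (0.76), and NDUFB6 rose at its promoter peak (0.38). NDUFC1 had 2 rising peaks (0.62 and 0.69), neither of them its promoter peak. NDUFB1, NDUFB6 and NDUFC1 are membrane-arm subunits outside the core, and their groups did not overlap in any of these peaks.

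The assembly factors NDUFAF6 and NDUFAF8 also had a rising peak each. The NDUFAF6 peak lay in an exon 75036 bp upstream of the canonical start, beside a non-coding transcript start of the gene and within 1 kb of a start of TP53INP1, and held 114, 104 and 115 normalized counts in control and 174, 200 and 210 in dm-αKG. Its groups were apart, with a log2 fold change of 0.80 ± 0.14 (SE, n = 3; adjusted p = 5.63e-06, edgeR), while the NDUFAF6 promoter peak was at −0.021. NDUFAF8, at a promoter peak that it shares with TEPSIN, went from 878, 857 and 836 to 935, 1066 and 1076. Its change was the smallest of the called ones (0.25 ± 0.07; adjusted p = 0.00341).

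**Figure D2:**
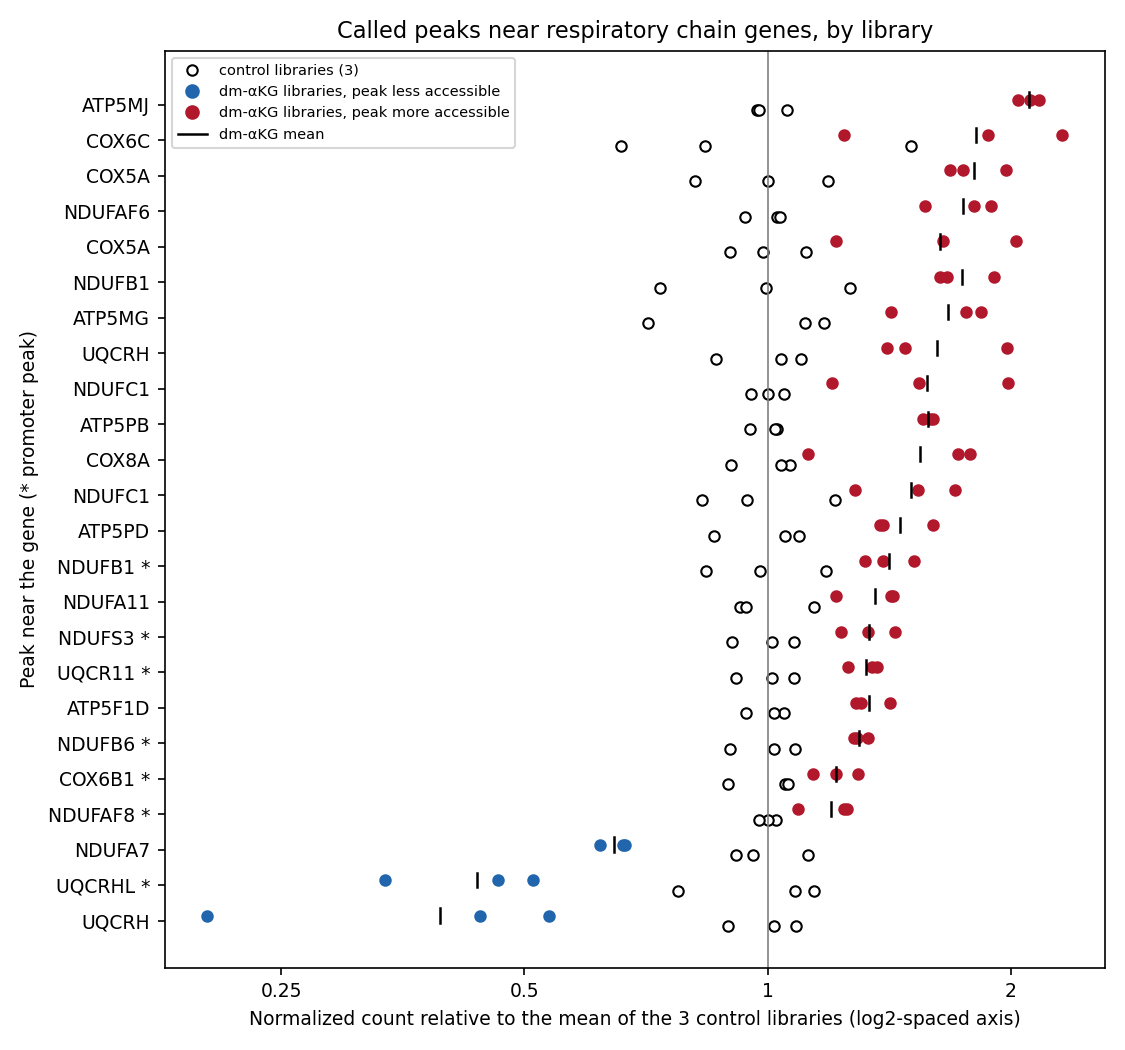
Normalized counts of the called peaks described in the text in each library, divided by the mean of the 3 control libraries (horizontal axis, log2-spaced); open circles are control, filled circles dm-αKG, and black ticks dm-αKG means. Every peak but that of COX6C has the 2 groups apart, and the UQCRH and UQCRHL peaks at the bottom and the ATP5MJ peak at the top lie beyond 2-fold.

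The promoter peaks themselves changed little. Of the 86, 6 were more accessible (NDUFS3, NDUFB1, NDUFB6, NDUFAF8, UQCR11 and COX6B1) and 1 was less accessible (UQCRHL). These are 6.98% and 1.16%, against 3.8% and 2.79% of the 14004 highest peaks of autosomal protein-coding genes, each shared peak counted once. The median log2 fold change of the 86 promoter peaks was 0.078, against 0.051 for those highest peaks. With TMM factors from promoter-proximal peaks, none of the 86 was more accessible and 2 were less, and DESeq2 called 3 more and 1 less. The largest positive values among them were at ATP5MG (0.54), NDUFB1 (0.51), COX6A2 (0.49), COX7A1 (0.46) and NDUFS3 (0.43), of which ATP5MG, COX6A2 and COX7A1 did not pass the test. The largest negative ones were at UQCRHL (−1.23), NDUFC2 (−0.45), COX7B2 (−0.38), NDUFS5 (−0.27) and NDUFA13 (−0.27), of which only UQCRHL passed. COX7A1, the muscle form of its subunit, was just over the threshold at an adjusted p of 0.0122 (edgeR), with its 3 dm-αKG libraries above its controls.

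Of the 21 gains, 15 were among the 175 secondary peaks, those other than the promoter peak. They were 8.57% of the secondary peaks, against 4.91% for all genes. The secondary peaks had a median log2 fold change of 0.21, against 0.14 for 35335 such peaks of all autosomal genes. In 56 of 75 respiratory chain genes with at least 2 peaks (74.7%), the median of the secondary peaks exceeded the change at the promoter peak, compared with 67.3% of 14058 genes. Secondary peaks had lower counts than promoter peaks, with a median of 72.6 against 383 normalized counts in control, and larger standard errors, with a median of 0.187 against 0.0871.

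Change and calls varied with position around the canonical start. Respiratory chain peaks were placed by the nearest start of a gene of the set, and promoter-proximal peaks by the nearest start of any gene. A shared peak can thus lie in a different range as a respiratory chain peak than as a promoter-proximal peak. The values of a range are therefore not directly comparable between them. Within 50 bp of the start none of 33 respiratory chain peaks was called by edgeR. Of promoter-proximal peaks of all genes, 3.14% rose and 1.22% fell at that distance. An unadjusted p below 0.05 (edgeR) was seen in 4 of the 33 peaks, against 1264 of 5420 promoter-proximal peaks. The median log2 fold changes there were 0.13 and 0.077. Between 50 and 300 bp upstream 3 of 54 rose (5.56%, against 2.85% of promoter-proximal peaks), with a median of 0.081. Further upstream, between 300 and 1000 bp, 7 of 50 rose (14%, against 3.42%) and the median was 0.23, against 0.09 for promoter-proximal peaks at that distance. All 7 of these gains were also near the start of a gene outside the set. Downstream the medians were 0.27 between 50 and 300 bp and 0.30 between 300 and 1000 bp, with 4 of 40 (10%, against 5.35%) and 4 of 37 peaks (10.8%, against 7.58%) called more accessible. Promoter-proximal peaks of all genes had medians of 0.18 and 0.20 in these ranges, also higher than their 0.09 and 0.048 upstream. The 47 peaks with no canonical start within 1 kb held all 4 losses (8.51%) and 3 gains (6.38%), with a median of 0.11. Among the 12827 promoter-proximal peaks of this kind, 4.51% fell and 3.81% rose, so losses were more frequent there for all genes as well.

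**Figure D3:**
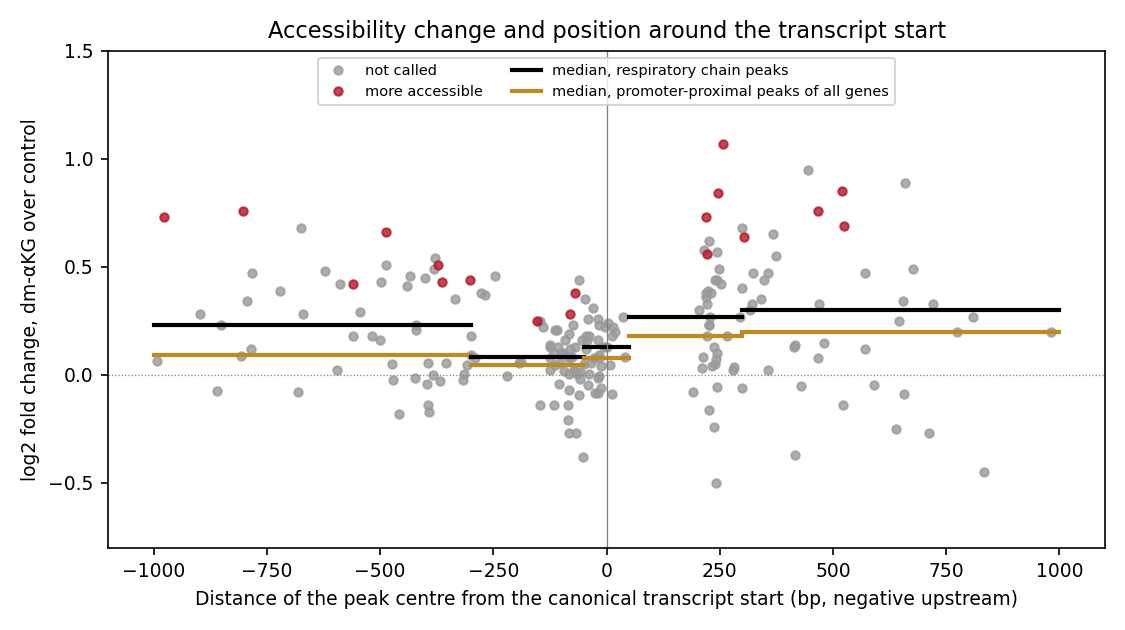
log2 fold change (vertical axis) against the distance of the peak centre from the canonical transcript start in bp (horizontal axis, negative upstream) for respiratory chain peaks within 1000 bp; red points were called more accessible, black bars are medians in 5 ranges of distance and ochre bars those of promoter-proximal peaks of all genes. The black bars lie above the ochre ones in every range, by the most upstream between 300 and 1000 bp (0.23 and 0.09), and no called loss lies in this window. Black bars use the nearest start of the set and ochre bars that of any gene, so they are not directly comparable.

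Many of these genes share their promoter with a neighbour. The promoter peaks of 37 of the 88 genes (42%) were also within 1 kb of a start of another protein-coding gene. Of the highest peaks of all autosomal genes, 14.2% were within 1 kb of 2 or more protein-coding genes. The first share counts genes and the second counts peaks, each shared peak once, so these shares are not directly comparable. Over all peaks, 130 of 261 were shared with a gene outside the set, and 12 of the 21 gains were among them. The partners included WDR77 at ATP5PB, KBTBD4 at NDUFS3, CPSF2 at NDUFB1, NAA15 at NDUFC1, KCTD2 at ATP5PD and LRRC41 at UQCRH. The shared peaks had a median log2 fold change of 0.22, with 9.23% gains and no loss. The 131 others had a median of 0.081, with 9 gains (6.87%) and all 4 losses (3.05%). Promoter-proximal peaks of all genes were not split in this way, so the difference is not shown to be particular to the set. A shared peak cannot be assigned to either gene from these data.

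In control cells the promoter peaks of the set had a higher median level than those of all genes. It was 185 normalized counts per 100 bp of peak, against 133 for the 14004 highest peaks of all autosomal genes. Class medians were 214 for complex I core subunits, 163 for its other subunits, 203 for its assembly factors, 128 for complex III, 194 for complex IV and 196 for complex V. The highest level of each class was at ATP5F1B (456), which encodes the catalytic subunit beta of ATP synthase, NDUFAF8 (424), NDUFA11 (382), UQCR10 (376), COX8A (331) and NDUFS8 (323). The lowest of each class were COX6A2 (11.5), ATP5MG (19.4), UQCRHL (27.7), NDUFB1 (36.1), NDUFS7 (51.9) and NDUFAF1 (81). A low promoter level thus did not mark only the tissue-restricted genes, since ATP5MG, NDUFS7 and NDUFB1 are general subunits. Promoter peaks were chosen by total count, so a wide one can be low per 100 bp. The peaks at the canonical starts of ATP5MG and NDUFB1 held 27 and 50.5 per 100 bp, still below the median of 133. The high level of NDUFA11 came from a peak 807 bp upstream of its canonical start, and its peak at that start held 61.

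Tissue-restricted forms and copies fell at both ends of this scale. COX6A2 (11.5 per 100 bp) and COX7A1 (34.9), both forms of heart and skeletal muscle, were far below the general forms COX6A1 (250) and COX7A2 (235), and UQCRHL (27.7) was below UQCRH (104). The only COX6A2 peak was centred 676 bp downstream of the canonical start, past the end of the gene, and held no summit of the control peak list. It therefore does not give the level at the COX6A2 start. The only UQCRHL peak lay 1538 bp upstream of its canonical start, so the level at that start is not known either. COX7A1 had a second peak at 54.3 per 100 bp. The testis form COX6B2 (242), by contrast, was at the level of COX6B1 (203), and NDUFA4L2 (212), known as a hypoxia-induced relative of NDUFA4, at that of NDUFA4 (186). The only NDUFA4L2 peak, however, lay 4062 bp upstream of its canonical start, near the start of a non-coding transcript, so the level at the canonical start is not known. COX4I2, COX8C and ATP5MGL had no peak at all, whereas their counterparts COX4I1 (58.4), COX8A (331) and ATP5MG (19.4) did. Neither COX6B2 (log2 fold change 0.12) nor NDUFA4L2 (−0.0061) passed the test for a change with dm-αKG.

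**Figure D4:**
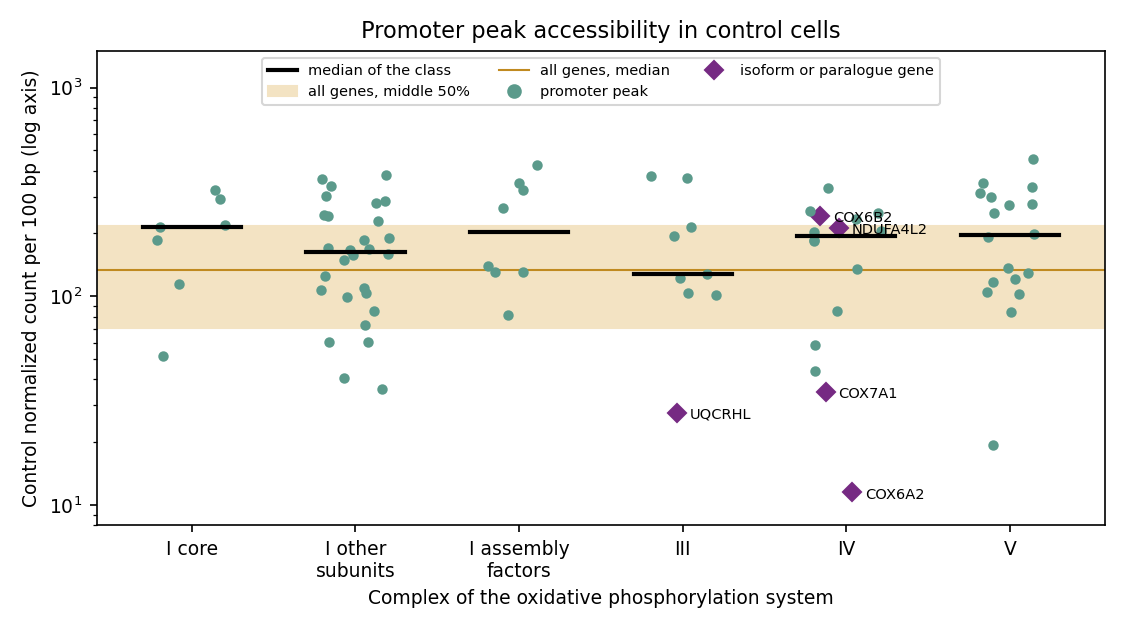
Control level of each promoter peak in normalized counts per 100 bp of peak (vertical log axis, mean of 3 libraries) by complex (horizontal axis); purple diamonds are isoform or paralogue genes, black bars class medians, and the band and line the middle 50% and median of all genes. COX6A2, COX7A1 and UQCRHL lie below the band, while COX6B2 and NDUFA4L2 lie near the complex IV median of 194.

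Sites for the factors named above were searched as exact letters, on both strands, in the 200 bp around each promoter peak centre. The NRF1 letters were found in 13 of 86 promoter peaks (15.1%), against 3.42% of the highest peaks of all genes. The YY1 letters were found in 8 (9.3%, against 2.44%) and the ETS letters in 15 (17.4%, against 13%). The sequence of COX6A1 printed above holds the NRF1 letters at 2 places, that of COX5B holds NRF1 and ETS letters, and that of NDUFB5 holds ETS and YY1 letters. The CRE was in 2.33% of the set against 2.11%, the CCAAT box (CCAAT) in 29.1% against 29.2%, the SP/KLF box in 29.1% against 43.4% and the AP-1 letters (TGANTCA) in 1.16% against 2.56%. The ERR letters (TCAAGGTCA) and the OCT octamer (ATTTGCAT) were in none of the 86, against 0.0714% and 1.06%. The median GC content was 62.8% in the set and 68.5% over all genes, and its part in these shares was not tested. Promoter peaks with the NRF1 letters had a median log2 fold change of 0.10 and those without 0.077, and for YY1 these were 0.11 and 0.078. The ETS letters went the other way, with 0.05 in peaks that held them and 0.079 in those without. So did the CCAAT box (0.06 and 0.082). These matches describe the windows and do not show binding.

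Of the 261 peaks, 226 held a summit of both of the peak lists that the authors called, 1 per treatment, while 15 held a summit of the control list alone and 20 of the dm-αKG list alone. The same counts were not made over all peaks, so these numbers are not shown to be particular to the set. The falling UQCRH and UQCRHL peaks were in the control list alone, with fold enrichments over background of 6.0 and 11.7. The falling NDUFA7 peak was in both lists, at 8.07 in control and 5.13 in dm-αKG. The rising ATP5MJ peak was also in both, at 2.94 and 5.72.

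Other genes of the same system, in 4 lists, also had more gains than losses. So did promoter-proximal peaks of all genes, of which 4.47% rose and 2.08% fell. In each list the share of gains was only slightly above that 4.47% and rested on few called peaks. Of 19 peaks near 6 genes of complex II and the cytochromes, 1 was more accessible, near SDHD, the membrane anchor of succinate dehydrogenase (log2 fold change 1.06). Of 71 peaks near 23 assembly genes of complexes III to V, 4 were more accessible and 1 less. COX17, the copper chaperone of complex IV, was less accessible at its promoter peak (333, 367 and 336 in control, 260, 278 and 257 in dm-αKG; −0.38), and ATPAF2, a chaperone of the ATP synthase F1 part, was more accessible at its own (0.29). Of 35 peaks near 11 genes of mitochondrial transcription, 2 were more accessible, both at POLRMT, the mitochondrial RNA polymerase, including its promoter peak (282, 269 and 264 in control, 351, 363 and 364 in dm-αKG; 0.40). Of 46 peaks near 11 regulators of the nuclear genes, 3 were more accessible, 2 near YY1 and 1 near ESRRA, and none of these was a promoter peak. The median log2 fold changes of the 4 lists were 0.09, 0.16, 0.13 and 0.15 in this order, against 0.15 for the respiratory chain peaks and 0.10 for promoter-proximal peaks.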

How the data were processed

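ATAC-seq libraries of H9 cells, 3 per treatment, were grouped by the labelled treatment. The authors processed reads with the ENCODE ATAC-seq pipeline (Bowtie 2, hg38, MACS2, irreproducible discovery rate) once per treatment. Peaks of both lists were cut to a fixed width around the summit and merged. The authors then deposited raw counts of reads per merged peak, counted with bedtools 2.28.0 according to the submitters' processing notes. They also deposited 1 peak list per treatment, with a fold enrichment ratio and a −log10 q-value for each peak. Those q-values were not used as tests.

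Counts of all 171517 peaks were fitted with edgeR 4.0.16 (R 4.3.3; TMM scaling, treatment as the only term, quasi-likelihood test), and p-values were adjusted over all peaks by the Benjamini-Hochberg method. Calls were made below an adjusted p of 0.01. Normalized counts are counts scaled to the mean TMM-adjusted library size. Distances run from the peak centre to GENCODE 44 starts, and the canonical start is that of the Ensembl canonical transcript. The alternatives were DESeq2 1.42.0, limma 3.58.1 with voom, other scalings, a count minimum, a replicate block and leaving out libraries. The fitting script was tested on simulated data.

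Named with values were genes with a called peak (1 of them is not reported here), the highest and lowest promoter level in each complex, the isoform genes, the 5 largest and 5 smallest promoter changes, and pathway genes with a called promoter peak. SDHD, YY1 and ESRRA were named after their values were seen. The members, the gene lists and the motifs were chosen with earlier results of these data known. Peaks are about as wide as the cut and were counted without respect to strand, so neighbouring genes share them.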

Additional observations from a re-analysis of the deposited data

How the results depend on the processing

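The 4 less and 21 more accessible peaks near respiratory chain genes became 3 and 8 with DESeq2 and 5 and 8 with TMM factors from promoter-proximal peaks. The 2.08% less and 4.47% more accessible promoter-proximal peaks of all genes became 1.16% and 1.82% with DESeq2, and 3.59% and 1.99% with these factors. Leaving out 1 library gave between 2 and 4 less accessible and between 7 and 23 more accessible peaks, the fewest without dm-αKG replicate 1. Without control replicate 1, 2 or 3, 10, 11 and 13 were more accessible, and without dm-αKG replicate 2, 12. In the same order, 2.34%, 2.77%, 2.73% and 2.21% of promoter-proximal peaks rose, and 1.21%, 1.44%, 1.48% and 1.39% fell. An adjusted p below 0.05 gave 8 and 41, and a change beyond 2-fold at the main threshold 2 and 1. With canonical starts only, 0 were less accessible and 18 more. No alternative reversed a call. Library numbers did not pair the samples (correlations of −0.0157, −0.000899 and 0.0134), and the replicate block gave 4 less and 20 more accessible peaks. With 3 libraries per treatment, changes of promoter peaks that did not pass the test are not shown to be absent.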
